A study of Homo sapiens with 6 samples.

Results

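The transcripts of 7 genes that assist, reverse or read ADP-ribosylation were examined in UWB1.289 cells treated with Olaparib. The genes were taken from a fixed list of symbols, HPF1, PARG, ADPRS, ADPRH, OARD1, MACROD1 and CHD1L, and each symbol matched 1 of the 63677 gene identifiers in the deposited table. All 7 were among the 21729 genes kept for testing, those whose counts over the 6 samples summed to more than 10. UWB1.289 is a BRCA1-deficient human ovarian carcinoma cell line, given the genotype WT in the sample labels, so the treated and the control samples share that deficiency. There were 3 samples with 4 µM Olaparib and 3 with the solvent DMSO, all collected after 24 h. The design text of the series states 10 µM, and the value of the sample labels is used here. Poly(A) RNA was sequenced and counted per gene.

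ADP-ribosylation is the transfer of ADP-ribose from NAD onto proteins, as single units or as poly(ADP-ribose) chains. At DNA breaks it is made mainly by PARP1 and PARP2, the enzymes that Olaparib inhibits. HPF1 completes the active site of PARP1 and PARP2 and turns them towards serine residues. Several hydrolases, called erasers, take the mark off again. PARG shortens the chains, ADPRS (ARH3) removes the last unit from serine, ADPRH (ARH1) acts on arginine, and OARD1 (TARG1) and MACROD1 act on single units at acidic residues. CHD1L (ALC1) is a chromatin remodeler that is switched on when its macro domain binds poly(ADP-ribose).

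After 24 h with Olaparib, 0 of the 7 transcripts passed an adjusted p of 0.05 against DMSO (quasi-likelihood test of edgeR, fitted and adjusted over all genes). Of all genes tested 3.36% passed this threshold, 2.15% higher and 1.21% lower after Olaparib, and 1.21% passed it with a change above 1.2-fold as well. At an unadjusted p under 0.05, 1 of the 7 genes, ADPRS, was left, close to the 14.8% of all genes tested that had one. DESeq2 and limma voom likewise gave 0 genes after adjustment and 1 before. The log2 fold changes ran from -0.062 for HPF1 to 0.11 for ADPRS, with 4 above and 3 below 0, and their median was 0.0023, beside -0.0042 over all genes tested. The 95% interval of the change lay within 1.2-fold in either direction for all 7 genes. In bulk RNA, fewer cells of a type and less RNA per cell cannot be told apart. In 1 of the 7 genes, again ADPRS, the 3 Olaparib samples did not overlap the 3 DMSO samples, which was so for 19.3% of all genes tested.

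**Figure D1:**
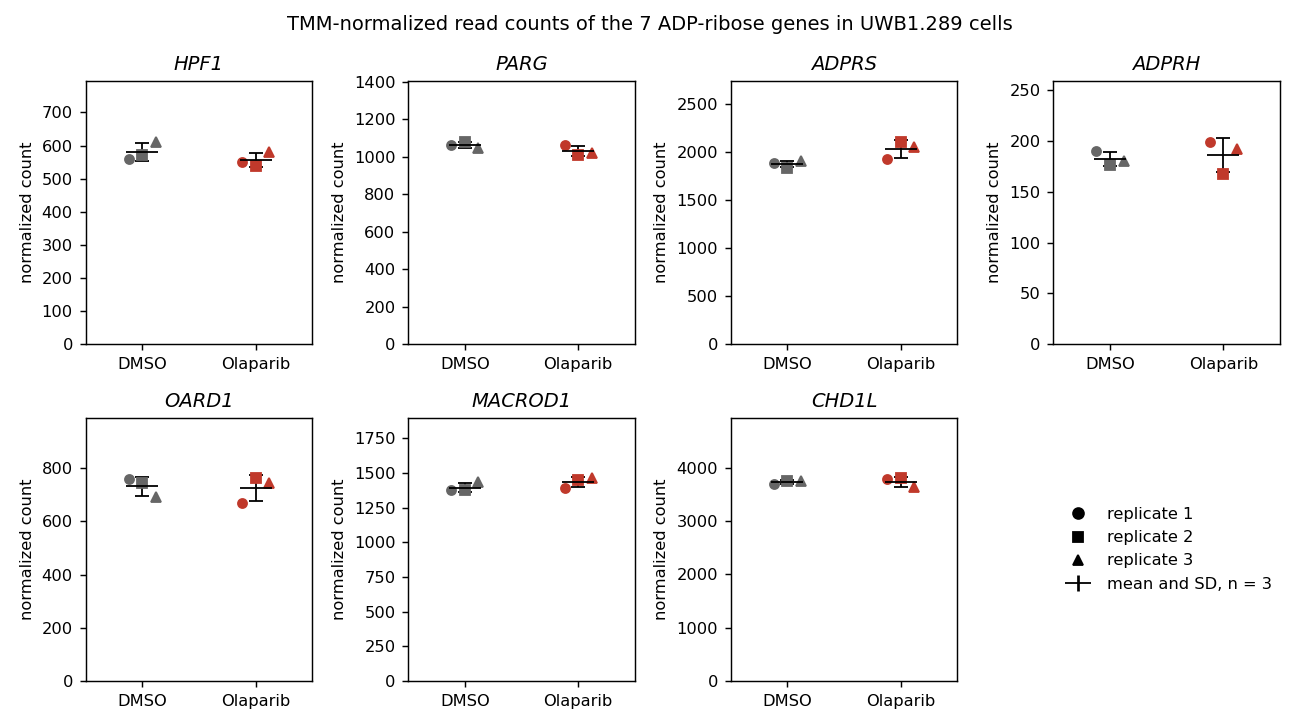
TMM-normalized read counts of the 7 genes (y axis, from 0, a scale of its own per gene) in the DMSO and Olaparib samples, with 1 point per sample and bars for the mean and SD of 3 samples. Only in ADPRS did the groups not overlap, with 1923 in the lowest Olaparib sample and 1904 in the highest DMSO sample.

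HPF1 (ENSG00000056050, chromosome 4, 169729470 to 169757944 on GRCh38, minus strand), the cofactor of PARP1 and PARP2, stood at 550, 538 and 582 normalized counts in the Olaparib samples and at 558, 573 and 611 in the DMSO samples. The 2 groups overlapped, and the highest value was that of DMSO replicate 3. The means were 557 ± 22.3 and 581 ± 27.5 (SD, n = 3 each). The log2 fold change of -0.062, with a standard error of 0.054, had an edgeR adjusted p of 0.663. Its 95% interval corresponded to 0.887-fold to 1.03-fold. No exonic base of HPF1 lies in another counted gene. Of the enzymes that HPF1 works with, PARP1 had a log2 fold change of 0.0045 (95% interval -0.050 to 0.059) and PARP2 one of -0.043 (95% interval -0.12 to 0.035), neither past the threshold (edgeR adjusted p of 0.961 and 0.674).

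PARG (ENSG00000227345, chromosome 10, 49818279 to 49970203, minus strand) encodes the main poly(ADP-ribose) glycohydrolase. A part of it has a close copy on the same chromosome, the pseudogene PARGP1 (ENSG00000239883), and 53.3% of the longest coding PARG transcript matched PARGP1 transcripts at an identity of at least 95%. In the longest shared stretch, 24 of 2070 bases differed, and the longest run without a difference was 255 bases. The 61 bases below are shown because they tell the genes apart at 2 positions. They come from exon 3 of PARG, within the coding sequence, at chr10:49934075-49934135, and from PARGP1 at chr10:45964783-45964843, both on the minus strand of GRCh38 and read 5′ to 3′, with the differing bases in capitals.
PARG: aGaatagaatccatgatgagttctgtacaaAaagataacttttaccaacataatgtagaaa
PARGP1: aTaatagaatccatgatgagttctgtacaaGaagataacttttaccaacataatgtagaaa
Counted from 1 at the 5′ end, the differences from PARG to PARGP1 are G2T and A31G. The table gave 6278 counts to PARG and 8 to PARGP1 over the 6 samples. A lncRNA, ENSG00000290921, matched 27.2% of the same PARG transcript at an identity of at least 95% and was not among the counted genes. How reads that fit PARG and a copy were assigned is not given in the sources used here, so reads from the shared parts are uncertain. On the opposite strand, TIMM23B overlaps 0.717% of the exonic bases of PARG.

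The PARG transcript stood at 1061, 1010 and 1018 normalized counts in the Olaparib samples and at 1063, 1080 and 1046 in the DMSO samples. Olaparib replicate 1 lay among the DMSO samples and the other two lay below them. The log2 fold change of -0.046, with a standard error of 0.045, had an edgeR adjusted p of 0.713, with means of 1030 ± 27.2 and 1063 ± 17.0. The 95% interval ran from 0.909-fold to 1.03-fold.

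ADPRS (ENSG00000116863, chromosome 1, 36088892 to 36093932, plus strand), the serine ADP-ribosylhydrolase, showed the largest difference of the 7. It stood at 1923, 2105 and 2051 normalized counts in the Olaparib samples and at 1884, 1836 and 1904 in the DMSO samples. All 3 Olaparib samples were above all 3 DMSO samples, although Olaparib replicate 1 exceeded the highest DMSO sample only narrowly (p = 0.1 by a two-sided exact permutation test, which cannot go lower with 3 samples against 3). The means were 2026 ± 93.3 and 1874 ± 34.96, a log2 fold change of 0.11 (standard error 0.042, 95% interval 0.026 to 0.20). In the test across all genes the unadjusted p was 0.0120 and the edgeR adjusted p 0.163, at rank 1603 of the genes tested. Without Olaparib replicate 1 the log2 fold change was 0.15 and the adjusted p 0.0421, whereas without Olaparib replicate 2 they were 0.085 and 0.437 (same test).

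ADPRH (ENSG00000144843, chromosome 3, 119579268 to 119589945, plus strand), the arginine-specific hydrolase, was the least abundant of the 7 and the least precisely measured. It stood at 199, 167 and 192 normalized counts in the Olaparib samples and at 190, 177 and 180 in the DMSO samples, so the Olaparib samples held both the lowest and the highest value. The log2 fold change of 0.032, with a standard error of 0.094, had an edgeR adjusted p of 0.927, and the 95% interval, from 0.895-fold to 1.17-fold, was the widest of the 7. At this depth counting alone gives a coefficient of variation of 7.37%, beside 9.05% observed among the Olaparib samples and 3.92% among the DMSO samples. An antisense lncRNA, ENSG00000272967, overlaps 8.30% of the exonic bases of ADPRH and had 2 counts over the 6 samples.

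OARD1 (ENSG00000124596, chromosome 6, 41033627 to 41097787, minus strand), which releases ADP-ribose from acidic residues, stood at 669, 761 and 744 normalized counts in the Olaparib samples and at 760, 744 and 690 in the DMSO samples. The lowest and the highest sample were both Olaparib samples. The log2 fold change of -0.013, with a standard error of 0.054, had an edgeR adjusted p of 0.95, and the 95% interval ran from 0.919-fold to 1.07-fold. Of its exonic bases, 14.4% overlap another counted gene, most of them UNC5CL on the same strand, which had 308 counts in total beside 4365 for OARD1. On the opposite strand, NFYA overlaps 1.15% of the exonic bases of OARD1 and had 7226 counts in total. APOBEC2, on that strand too, overlaps 1.84% and had 1 count.

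MACROD1 (ENSG00000133315, chromosome 11, 63998558 to 64166113, minus strand), a macro domain hydrolase known mainly from mitochondria, stood at 1393, 1453 and 1461 normalized counts in the Olaparib samples and at 1377, 1378 and 1433 in the DMSO samples. The 2 highest samples were Olaparib samples, but Olaparib replicate 1 was below DMSO replicate 3. The log2 fold change of 0.040, with a standard error of 0.043, had an edgeR adjusted p of 0.741. The 95% interval, 0.967-fold to 1.09-fold, included no change.

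CHD1L (ENSG00000131778, chromosome 1, 147242654 to 147295765, plus strand), the remodeler that reads poly(ADP-ribose), stood at 3788, 3800 and 3635 normalized counts in the Olaparib samples and at 3700, 3753 and 3752 in the DMSO samples. All 3 DMSO samples lay inside the range of the Olaparib samples. With means of 3741 ± 92.0 and 3735 ± 30.1, its log2 fold change of 0.0023 was the smallest of the 7 (its standard error was 0.035 and its edgeR adjusted p 0.989). Its interval, 0.953-fold to 1.05-fold, was the narrowest. A lncRNA on the same strand, ENSG00000237188, shares 63.2% of the exonic bases of CHD1L. It had 171 counts over the 6 samples, beside 22429 for CHD1L, and how reads in the shared part were assigned is not given in the sources used here.

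**Figure D2:**
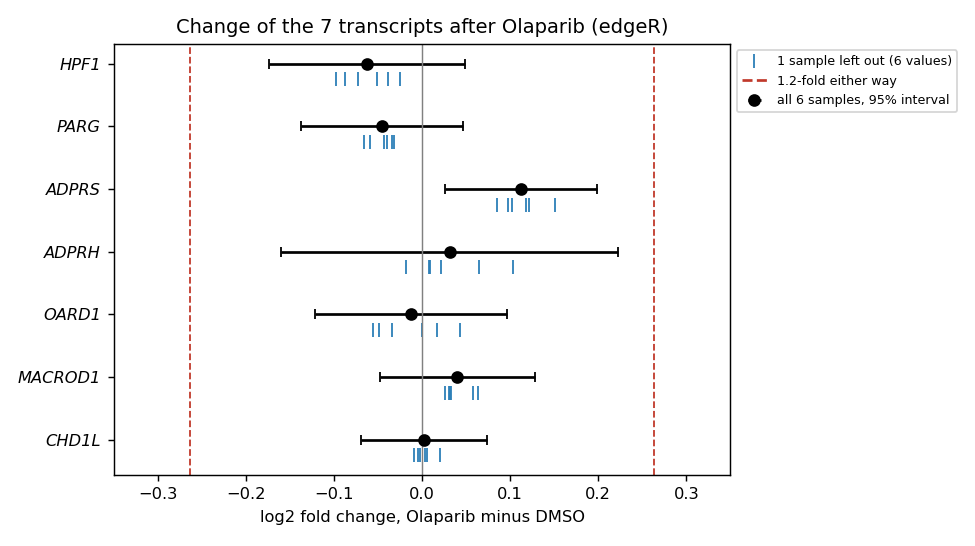
Log2 fold change of each gene, Olaparib minus DMSO (x axis), with black points and bars for the value and 95% interval from edgeR on all 6 samples, blue ticks for the 6 values with 1 sample left out, and dashed lines at 1.2-fold. All 7 intervals lie between the dashed lines, and only that of ADPRS, 0.026 to 0.20, does not cross 0.

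The levels of the 7 transcripts were compared per length, as TPM, the share of transcripts in a sample after division by gene length, over the exonic bases of each gene. ADPRS had the highest level, 115 TPM averaged over the 6 samples, followed by CHD1L with 84.6, MACROD1 with 65.7, HPF1 with 38.9, PARG with 19.7, OARD1 with 10.9 and ADPRH with 3.88 TPM. The serine hydrolase ADPRS thus stood above 93.2% of the annotated genes tested and the arginine hydrolase ADPRH above 46.3%. No pair of neighbours in this order overlapped over the 6 samples: the closest, CHD1L and MACROD1, ran from 81.8 to 85.9 and from 63.9 to 67.5 TPM. The order at the top depended on the gene length used. With the length of the canonical transcript in place of all exonic bases, CHD1L (69.1 to 73.0 TPM), ADPRS (63.5 to 72.0 TPM) and MACROD1 (62.6 to 65.6 TPM) were overlapping neighbours in this order, and so were PARG (13.3 to 14.4 TPM) and OARD1 (12.02 to 13.8 TPM). By their means, only ADPRS and CHD1L changed places between the lengths. HPF1 and ADPRH kept the fourth and the seventh place under both lengths without overlapping a neighbour. How reads in parts shared with other genes were assigned is not given in the sources used here. The levels of CHD1L, PARG and OARD1, and so their places in the order, may depend on it.

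**Figure D3:**
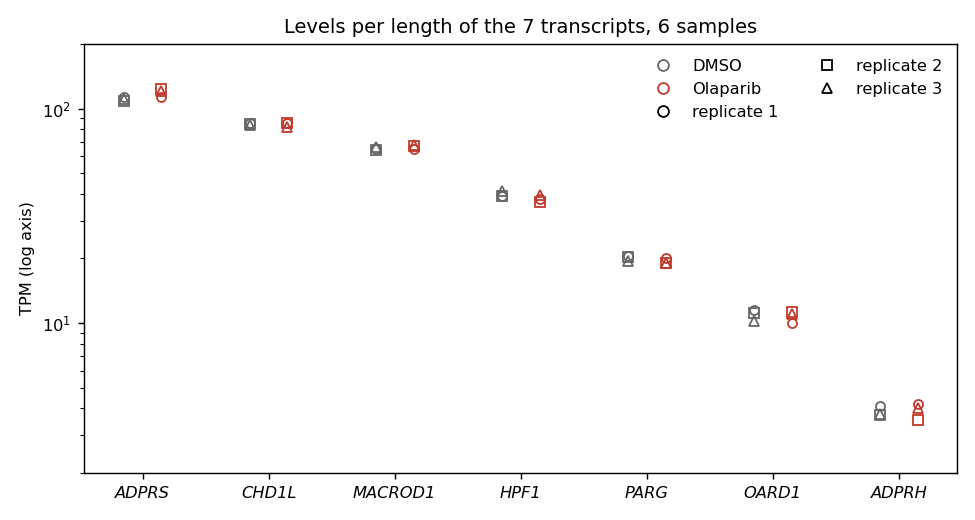
Level of each gene in TPM over its exonic bases (y axis, log scale) in the 3 DMSO and 3 Olaparib samples, 1 symbol per sample. The genes form 7 separate steps from ADPRS (108 to 124 TPM) down to ADPRH (3.51 to 4.21 TPM), and within each step the samples of both groups lie close together.

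Across the 6 samples, PARG ran opposite to ADPRS and to MACROD1. Pearson's r of log2 CPM was -0.97 between PARG and ADPRS (Spearman's rho -0.94) and -0.95 between PARG and MACROD1 (rho -0.89). It was 0.86 between ADPRS and MACROD1 (rho 0.83). Without the 2 samples farthest from the median of the first gene of each pair, r was -0.78, -0.87 and 0.50. These are 3 of the 21 pairs of genes, chosen after their values were seen. The genes of a pair are read from the same 6 libraries, which include Olaparib and DMSO samples. The values are given as a description. In the longest transcript of each gene, GC content was 43.7% for PARG, 58.8% for ADPRS and 67.2% for MACROD1. The libraries differed along this axis. The median log2 deviation of GC-rich genes (above 55.8% GC) minus that of GC-poor genes (below 41.5%), among 13336 genes, was -0.064, 0.10 and 0.015 in Olaparib replicates 1 to 3 and -0.063, 0.017 and -0.0056 in DMSO replicates 1 to 3. Olaparib replicate 2 had the highest GC contrast, the highest ADPRS value and the lowest PARG value. DMSO replicate 2, next at 0.017, had the lowest ADPRS value and the highest PARG value. Olaparib replicate 3, close to it at 0.015, had 2051 normalized counts of ADPRS and 1018 of PARG, nearest to those of Olaparib replicate 2. The part of GC content in these values was not tested beyond the offset that follows. With an offset for the GC trend of each sample, r was -0.91 for PARG and ADPRS, -0.41 for PARG and MACROD1, and 0.26 for ADPRS and MACROD1. The log2 fold change of ADPRS was then 0.094 (edgeR adjusted p of 0.137).

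**Figure D4:**
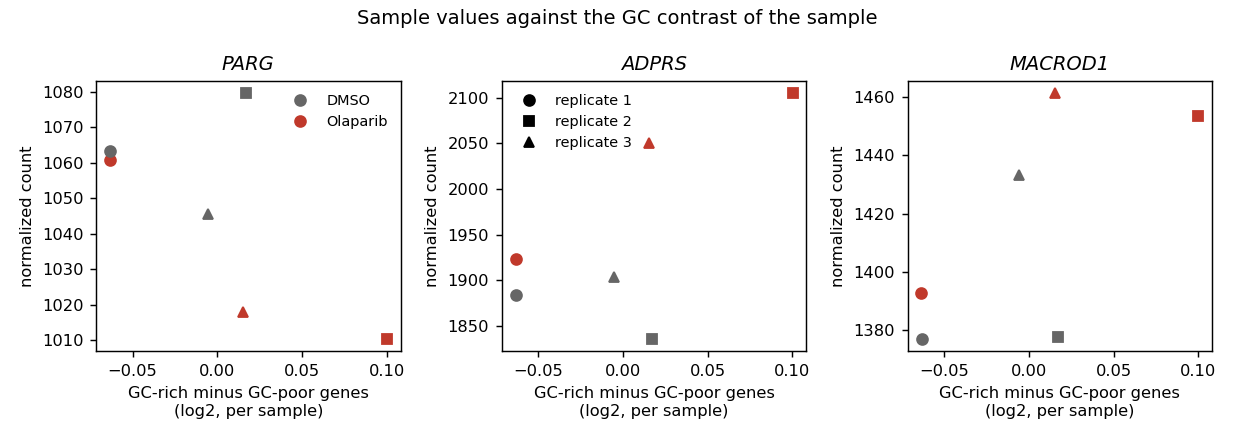
Normalized counts of PARG, ADPRS and MACROD1 (y axes, which do not start at 0) against the GC contrast of each sample, the median log2 deviation of GC-rich minus GC-poor genes (x axis), with 1 point per sample. Olaparib replicate 2, at 0.10, is the sample farthest to the right, with the lowest PARG value (1010) and the highest ADPRS value (2105). DMSO replicate 2, next at 0.017, has the highest PARG value (1080) and the lowest ADPRS value (1836). Olaparib replicate 3, at 0.015, has 1018 for PARG and 2051 for ADPRS.

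For each gene, the transcript most like it over the 6 samples was sought among the other 13602 genes with a mean of at least 1 CPM. The highest Pearson's r of log2 CPM was that of TRIR for ADPRS (0.997), of ELF1 for ADPRH (0.995), of GPN3 for HPF1 (0.994), of TRIM56 for OARD1 (0.994), of L3MBTL2 for MACROD1 (0.993), of GDAP1 for PARG (0.988) and of JADE2 for CHD1L (0.982). The number of genes with an r above 0.95 ran from 11 for CHD1L (0.0809% of those compared) to 96 for ADPRS (0.706%). All genes are read from the same 6 libraries, 1 per sample. The highest of so many values over 6 samples is high for any gene. These values are therefore a description, and no link between the genes is drawn from them.

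Genes related to the 7 by function or by protein family were taken from 3 lists. The first held 6 genes for hydrolases of ADP-ribose or its conjugates, or for their relatives (MACROD2, ADPRHL1, NUDT5, NUDT9, NUDT16 and ENPP1). Of these 6, 0 passed an adjusted p of 0.05 in edgeR's quasi-likelihood test. At an unadjusted p under 0.05, 0 passed as well (14.8% of all genes tested). DESeq2 and limma voom gave 0 in both cases. The log2 fold changes of the 6 lay between -0.045 and 0.22. The smallest p was that of ENPP1, with 164, 161 and 152 normalized counts in the Olaparib samples and 153, 130 and 138 in the DMSO samples (log2 fold change 0.18, edgeR adjusted p of 0.443). The groups overlapped, in that the lowest Olaparib sample was below the highest DMSO sample. Among 14 genes for proteins that read ADP-ribose, 2 were higher and 0 lower at an edgeR adjusted p under 0.05 (2.15% and 1.21% of all genes tested). The median log2 fold change of the 14 was 0.012. In 4 of the 14 the groups did not overlap (19.3% of all genes tested). The 2 higher genes were PARP14 and PARP9, macro domain proteins that belong to the interferon-inducible PARPs. PARP14 stood at 1927, 2189 and 2288 normalized counts in the Olaparib samples and at 1692, 1634 and 1628 in the DMSO samples, a log2 fold change of 0.37 (edgeR adjusted p of 3.9e-06). All 3 Olaparib samples were above all 3 DMSO samples. PARP9 likewise did not overlap, though by a small margin. It stood at 1174, 1389 and 1462 normalized counts in the Olaparib samples and at 1169, 986 and 1100 in the DMSO samples, a log2 fold change of 0.31 (edgeR adjusted p of 0.00152, against 0.118 from DESeq2). The lowest log2 fold change, -0.43, was that of PARP15, named here after its values were seen, which had 12 counts in total.

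Of 17 SNF2-type remodelers related to CHD1L, 1 was higher and 0 lower at an edgeR adjusted p under 0.05 (2.15% and 1.21% of all genes tested). A log2 fold change below 0 was found in 13 (51.4% of all genes tested), and the median was -0.035. The groups did not overlap in 3 of the 17 (19.3% of all genes tested). The gene that rose was CHD6, a member of the CHD family, with 2593, 2496 and 2477 normalized counts in the Olaparib samples and 2347, 2240 and 2171 in the DMSO samples. Its log2 fold change of 0.16, with a standard error of 0.041, had an edgeR adjusted p of 0.0163. The groups did not overlap, but the edgeR adjusted p was 0.0587 without Olaparib replicate 1, 0.0939 without DMSO replicate 2 and 0.158 without DMSO replicate 3.

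**Figure D5:**
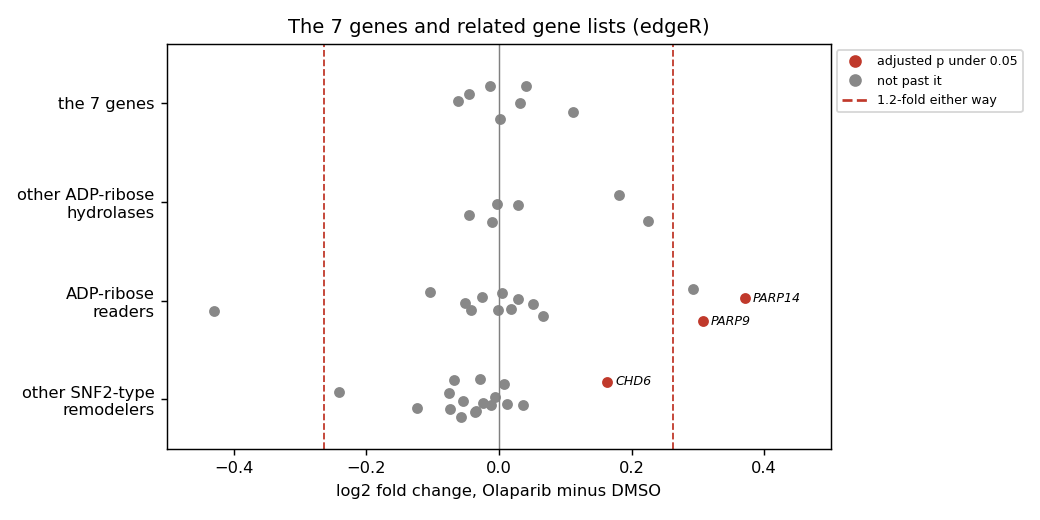
Log2 fold change, Olaparib minus DMSO (x axis), of the 7 genes and of the 3 related lists (rows, 1 point per gene with more than 10 counts, shifted vertically so that points can be seen), with red points for an adjusted p under 0.05 and dashed lines at 1.2-fold. The 7 genes lie between -0.062 and 0.11, and PARP14 and PARP9 are the red points beyond 1.2-fold.

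Total counts per sample were 35360458 to 39640775. The epithelial markers EPCAM, KRT8, KRT18, KRT19 and CDH1 were all detected, with a summed 332088 to 347246 normalized counts after Olaparib and 320538 to 331447 after DMSO. They did not move alike. The log2 fold change was above 0 in 4, from 0.071 for KRT8 to 0.14 for CDH1, and -0.039 in EPCAM. Of the 5, 0 passed an edgeR adjusted p of 0.05. Of the Mullerian markers, MUC16 was detected, PAX8 rose by 0.10 on the log2 scale (edgeR adjusted p of 0.0399) and WT1 had 8 counts in total. The leukocyte markers PTPRC, CD3E and CD68 summed to 76.5 to 89.2 after Olaparib and 55.9 to 85.7 after DMSO, and HBB and HBA1 had 3 and 4 counts in total. Among the endothelial markers PECAM1 was at 0, while CDH5 had 1494 to 1680 normalized counts and VWF rose from 41.8 ± 1.96 to 67.4 ± 3.17 (log2 fold change 0.68, edgeR adjusted p of 0.0106). Their sum was 1564 to 1613 after Olaparib and 1609 to 1723 after DMSO. The part of these markers in the values of the 7 genes was not tested.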

How the data were processed

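RNA of 6 samples was analysed, 3 with Olaparib and 3 with DMSO, grouped by the sample labels. The authors deposited whole-number read counts per gene without normalization. Per the paper's methods they trimmed reads with Trimmomatic, used STAR with GRCh38 for mapping, identified duplicates by Picard, and counted by featureCounts. The strand setting, the treatment of reads that fit several genes and the removal of duplicates are not given in the sources used here, which bears on PARG, OARD1, ADPRH and CHD1L.

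Genes with more than 10 counts in total (the sum over the 6 samples) were kept and scaled by TMM (factors 0.995 to 1.01). Olaparib was compared with DMSO by the quasi-likelihood test of edgeR 4.0.16 in R 4.3.3, fitted on all genes kept, with Benjamini-Hochberg adjustment. Standard errors were the fold change divided by the root of the F statistic. The common biological coefficient of variation was 0.0353. Replicate pairs differed by more than sampling noise (chi-square per degree of freedom 1.81 to 4.11), so 6 samples were counted. The code was tested on simulated data. DESeq2 1.42.0, limma 3.58.1, other scalings, other filters, a replicate block and leaving out each sample were alternatives. The GC offset and the canonical transcript length were added after seeing the data. The table held no gene lengths, so lengths, coordinates and overlaps came from GENCODE release 44 on GRCh38, which held 96.0% of the genes kept. Copies were sought with BLAST+ (identity of at least 95% over at least 100 bases). GC content was that of the longest transcript.

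The 7 genes and the lists were chosen with earlier results of these data known. Named genes were the 7, PARP1 and PARP2, list genes with an adjusted p under 0.05 or at most 10 counts (else the smallest p), the most alike gene, and overlapping genes and copies. Genes named outside this rule are said to be so. The p-values of edgeR set the difference between the groups against the spread of samples within a group. They cover these 6 samples only.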

Additional observations from a re-analysis of the deposited data

How the results depend on the processing

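No alternative gave a called gene among the 7 with a change above 1.2-fold or 1.5-fold. HPF1, PARG, ADPRS and MACROD1 kept their direction in all 14 alternatives, and their log2 fold changes ran from -0.097 to -0.025, from -0.066 to -0.032, from 0.085 to 0.15 and from 0.012 to 0.064. ADPRS passed an adjusted p of 0.05 only without Olaparib replicate 1, so that between 0 and 1 of the 7 genes passed when samples were left out. The number of readers that passed was 1 with DESeq2. That of remodelers was 2 with the replicate block and with the GC offset, where HELLS and CHD3, respectively, named after their values were seen, passed beside CHD6, both lower after Olaparib. It was between 0 and 1 with samples left out, and without Olaparib replicate 1 the gene that passed was HELLS (log2 fold change -0.16, edgeR adjusted p of 0.0348), not CHD6. Values close to 0 changed sign. CHD1L went to -0.0068 with upper quartile scaling, to -1.1e-05 with filterByExpr, to -0.0061 with the GC offset and to between -0.0086 and 0.021 with 1 sample left out. ADPRH lay between -0.018 and 0.10 and OARD1 between -0.056 and 0.043 with 1 sample left out. The cause was not tested. Deviations of same-numbered Olaparib and DMSO samples correlated at -0.091, 0.20 and -0.17, so the numbers were not taken to pair them, and not every sample correlated best with its own number. Over all genes, 730 passed an adjusted p of 0.05, against 1322 with the replicate block, 1104 with the GC offset and 398 to 870 with 1 sample left out (398 without DMSO replicate 2, 401 without DMSO replicate 3 and 439 without Olaparib replicate 3). DESeq2 gave 150 genes with a change above 1.2-fold as well, against 262. With the block ADPRS had an adjusted p of 0.0808 in edgeR, and it called 0 of the 7 genes. The depth of ADPRH limits what could be seen there.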
